A study of Mus musculus with 8 samples.

Results

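The SOX genes encode transcription factors that bind DNA through a shared HMG box. The loci described here are those of 10 of them, Sox2, Sox4, Sox6, Sox7, Sox9, Sox10, Sox11, Sox13, Sox17 and Sox18, out of 21938 annotated protein-coding genes. Each locus was a window that held the gene body and 200 kb on either side of it (mm10, GENCODE M21). The windows held 179 and 193 peaks in control tumors 1 and 2, and 182 and 164 peaks in test tumors 1 and 2. Over the whole genome the tumors had between 59762 and 69861 peaks.

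To ask how CD4+ T cell immunity driven by thymic stromal lymphopoietin (TSLP) alters breast tumor chromatin, acetylation of lysine 27 of histone H3 (H3K27ac), which marks promoters and enhancers in use, was profiled by ChIP-seq in 4 mouse breast tumors. Both control tumors came from PyMT;Rag1KO mice and both test tumors from K14-TSLPtg;PyMT;Rag1KO mice. In both groups the mice were BALB/c, lacked Rag1 and so had no T or B cells of their own, carried the polyoma middle T oncogene under the MMTV promoter, and had been injected, when 4 weeks old, with CD4+ T cells from wild-type mice. The K14 promoter places TSLP expression in keratin 14-positive epithelium, skin included, so the transgene was not confined to the tumor. In the titles the word tumor stands for controls and cyst for test samples, and the cell make-up of each is not known.

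The HMG box bends DNA at short sites such as ACAATG and ACAAAG. The family is divided into groups by sequence. Group B1 (Sox2) maintains stem and progenitor cells, and group C (Sox4 and Sox11) acts in progenitor and developing tissue, where Sox4 is also known as a factor of epithelial–mesenchymal transition. Group D factors (Sox6 and Sox13) lack an activation domain of their own and act with partners. Group E includes Sox9 and Sox10, which in the mammary gland are known from progenitor cells. Group F (Sox7, Sox17 and Sox18) is known from blood and lymph vessel endothelium.

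The lists give the position and width of peaks but not their strength, so the level of acetylation was read as the percent of bases in a window that lay in peaks. The tissue was first checked against luminal epithelial markers. Of 13 luminal genes, whose coverage within 10 kb of the start summed to 469% and 442% in the controls and 448% and 453% in the test tumors, 11 had a promoter peak in all 4 tumors, including Krt8, Epcam, Cdh1 and Gata3, while no peak lay near Pgr or Foxa1. Promoter here means within 1 kb of the annotated gene start. Over all protein-coding genes, 49.6% of promoters had a peak in all 4 tumors. The 4 tumors covered 209.378, 206.275, 226.17 and 210.298 kb of the SOX windows (control 1, control 2, test 1, test 2). The ratio of test to control was 1.05, and the 4 possible pairings across groups gave 1.00 to 1.10. Over all protein-coding windows the ratio was 0.977 (0.884 to 1.07). Peaks whose nearest coding gene start was that of 1 of the 10 SOX genes covered 113.5, 100.1, 119.6 and 125.2 kb, a ratio of 1.15, and both test tumors lay above both controls. This measure was not computed over all genes, so whether its ratio and order are particular to the SOX genes is not known.

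Window coverage fell into a wide range across the family, while the groups overlapped at most loci. Sox10 had the most covered window, with a mean over tumors above that of 96.8% of genes, followed by Sox9 (76.3%), Sox13 (75.3%), Sox4 (70.1%) and Sox18 (61.0%). Sox6 (29.9%), Sox2 (24.2%), Sox7 (20.4%), Sox11 (15.4%) and Sox17 (7.06%) were in sparsely covered windows. Both control tumors were higher at 1 of the 10 loci (Sox17), against 12.4% of all windows with any peak. Both test tumors were higher at 2 (Sox9 and Sox11), against 15.9% of all windows. The groups overlapped at the other 7 loci. With 2 tumors per group an exact permutation test over tumors cannot give a two-sided p below 0.333, so no difference here was tested for significance, and the order of the tumors with the spread between them is given.

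**Figure D1:**
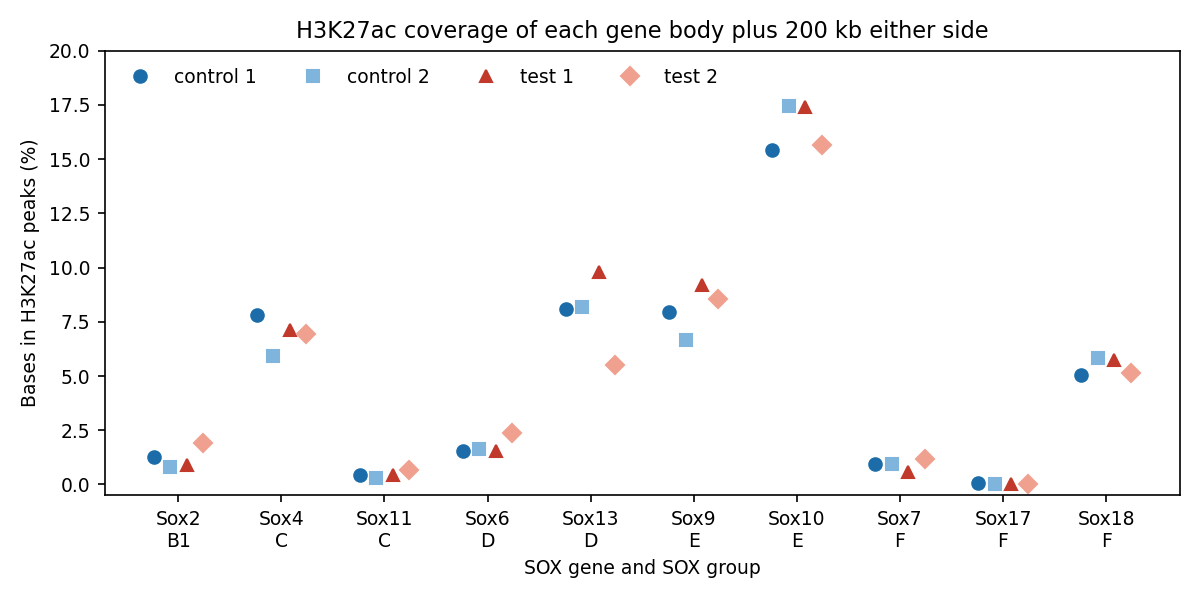
Percent of bases in H3K27ac peaks in each SOX window (vertical axis) for the 10 genes ordered by SOX group (horizontal axis), 1 point per tumor. Sox10 lies highest, from 15.4 to 17.4%, and only Sox9, Sox11 and Sox17 have groups that do not overlap.

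At promoters, Sox4, Sox9, Sox10 and Sox13 had a promoter peak in all 4 tumors, and Sox2, Sox6, Sox7, Sox11 and Sox18 had none in any tumor. Over all genes, 49.6% of promoters had a peak in all 4 tumors and 42.8% in none, so the 4 and 5 of 10 SOX promoters lay near the background. The Sox17 promoter had a peak in control 1 only. Among the promoters acetylated in all 4 tumors, the peaks over Sox10, Sox9 and Sox4 were among the widest in the genome, wider on average than at 99.7%, 99.2% and 97.6% of such promoters, while Sox13 exceeded 71.8%.

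In group B1, the Sox2 gene (chr3:34650405-34652461, plus strand), which encodes a factor of pluripotent and neural progenitor cells, was bare of acetylation. The nearest peak to its start lay 64788 bp away in control 1, 83955 bp in control 2, 84060 bp in test 1 and 68961 bp in test 2. Coverage of the window was 1.27% and 0.805% in the controls and 0.904% and 1.93% in the test tumors. Test 2 was highest and control 2 lowest, so the groups overlapped. The window held 11 regions formed by joining the overlapping peaks of all tumors, 4 of them present in all 4 tumors, and no other protein-coding gene. The widest, chr3:34738345-34740550, lay 87.9 kb downstream of the start and covered 1024, 334, 769 and 2206 bp in control 1, control 2, test 1 and test 2.

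Group C showed both extremes. Sox4 (chr13:28948919-28953713, minus strand) lay inside an acetylated domain in every tumor, with a promoter peak of 6571 and 6487 bp in the controls and 5915 and 6667 bp in the test tumors. The domain spanned all of the gene body in 3 tumors and 99.7% of it in test 1. Window coverage was 7.83% and 5.91% in the controls and 7.11% and 6.93% in the test tumors, and both test values lay between the control values. Acetylation was placed unevenly around the gene. The 200 kb downstream were covered by 11.8%, 8.39%, 10.1% and 10.2% (control 1, control 2, test 1, test 2), and the 200 kb upstream by 1.16 to 1.89%. The window held 35 regions, all with Sox4 as the nearest coding gene, and 13 were present in all 4 tumors. The widest of these away from the promoter was chr13:28914979-28919802, 33.9 kb downstream, with 4765 and 3402 bp covered in the controls and 4435 and 4127 bp in the test tumors.

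Within 10 kb either side of the Sox4 start the order was different from that of the window. Coverage was 44.6% in both controls and 41.7% and 43.4% in the test tumors. The mean difference was −2.02 percentage points (SD over the 4 pairings 0.982). Both controls were higher, an order found at 11.6% of all genes with coverage near the start. Over the gene body with 10 kb either side the order was lost, with 38.4% and 39.3% in the controls and 35.8% and 39.4% in the test tumors. A control-only region, meaning one found in both controls but in no test tumor, lay beside this domain at chr13:28946605-28947414 (810 bp). It covered 303 bp in control 1 and 744 bp in control 2 and was 294 bp from the shared promoter domain.

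Sox11 (chr12:27334264-27342574, minus strand), a factor of developing neurons, was bare like Sox2. Coverage of its window was 0.422% and 0.284% in the controls and 0.423% and 0.683% in the test tumors. Both test tumors were higher, but control 1 and test 1 differed by little, with 1.725 and 1.727 kb covered. The groups overlapped when coverage was scaled to that of all gene windows in each tumor, and when peaks under 1 kb were left out. The window held 3 regions. The widest, chr12:27135224-27137154, lay 205 kb downstream of the start, near the edge of the window. It was covered by 971 and 735 bp in the controls and by 674 and 1931 bp in the test tumors. There test 1 was lowest and test 2 highest, and this region made up most of the 2.788 kb covered in test 2. A test-only region (in both test tumors and neither control tumor), chr12:27356985-27357342, was 358 bp wide and lay 14.4 kb upstream. It was 123 bp from a region present in all 4 tumors, chr12:27357466-27358355, in which the tumors covered 754, 425, 695 and 659 bp.

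The sequences before the Sox2, Sox4 and Sox11 starts are shown because these promoters differ in acetylation while all 3 are rich in CpG. They are from RefSeq (GRCm38.p6), up to 250 bases before the RefSeq start and ending where an annotated exon begins. The ratio of observed to expected CpG over the 300-base entries was 0.819 for Sox2, 0.817 for Sox11 and 0.679 for Sox4, against a median of 0.384 over 32851 promoters. The sequences are those of Sox4 (chr13:28953714-28953949, minus strand), Sox2 (chr3:34649745-34649994, plus strand) and Sox11 (chr12:27342719-27342968, minus strand). Capitals mark CCAAT on either strand, a box bound by NF-Y, which occurred 3 times at Sox4, 1 time at Sox2 and 1 time at Sox11, and at least once in 37.4% of all promoters. The SOX cores ACAATG and ACAAAG, counted on both strands, had 1 match at Sox2 and 0 at Sox4 and Sox11. At least 1 of these cores was in 28.6% of all promoters, and ACAAAG is also close to the TCF/LEF core.
Sox4: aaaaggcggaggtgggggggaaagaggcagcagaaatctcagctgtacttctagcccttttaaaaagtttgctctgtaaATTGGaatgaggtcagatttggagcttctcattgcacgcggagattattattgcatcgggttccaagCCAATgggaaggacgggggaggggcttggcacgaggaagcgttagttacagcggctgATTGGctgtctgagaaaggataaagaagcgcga
Sox2: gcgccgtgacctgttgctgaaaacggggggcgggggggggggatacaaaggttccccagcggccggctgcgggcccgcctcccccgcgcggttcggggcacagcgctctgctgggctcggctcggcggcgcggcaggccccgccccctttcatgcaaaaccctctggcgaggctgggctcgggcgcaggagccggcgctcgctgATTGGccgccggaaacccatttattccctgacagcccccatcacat
Sox11: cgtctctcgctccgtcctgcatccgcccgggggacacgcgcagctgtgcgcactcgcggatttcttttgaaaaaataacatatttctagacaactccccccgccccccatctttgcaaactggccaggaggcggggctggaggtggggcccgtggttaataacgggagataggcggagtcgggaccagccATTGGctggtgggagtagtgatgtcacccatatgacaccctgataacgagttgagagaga

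The central 300 bases of the Sox4 control-only region (chr13:28946860-28947159) and of the Sox11 test-only region (chr12:27357014-27357313), plus strand, are shown because these regions separated the groups next to a group C gene. Capitals would mark ACAATG or ACAAAG on either strand, and neither sequence held a match.
Sox4 control-only: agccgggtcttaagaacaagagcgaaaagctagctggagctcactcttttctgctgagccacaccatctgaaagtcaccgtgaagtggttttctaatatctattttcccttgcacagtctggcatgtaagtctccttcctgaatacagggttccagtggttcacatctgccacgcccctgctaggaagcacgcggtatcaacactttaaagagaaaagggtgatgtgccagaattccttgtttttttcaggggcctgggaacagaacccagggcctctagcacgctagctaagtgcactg
Sox11 test-only: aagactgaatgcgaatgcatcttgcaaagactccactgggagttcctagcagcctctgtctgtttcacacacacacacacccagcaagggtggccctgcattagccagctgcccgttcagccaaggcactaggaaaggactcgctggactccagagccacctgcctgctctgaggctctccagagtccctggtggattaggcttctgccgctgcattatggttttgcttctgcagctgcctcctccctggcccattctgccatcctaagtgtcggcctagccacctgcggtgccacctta

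In group D, the annotated start of Sox6 (chr7:115470872-116038796, minus strand), a regulator of cartilage, muscle and red cell genes, was bare, with the nearest peak between 53861 and 53912 bp away in the 4 tumors. The gene is long and has 13 annotated starts. Of these, 1 had a peak in all 4 tumors. It lay deep in the gene, in the region chr7:115822955-115826419, in which 2257 and 2255 bp were covered in the controls and 2080 and 3465 bp in the test tumors. Test 2 was highest and test 1 lowest. Coverage of the gene body was 1.05% in both controls and 0.859% and 1.78% in the test tumors. Of 22 regions in the window 10 were present in all 4 tumors, 4 of them in the gene body and 6 upstream in other gene bodies. The widest, chr7:116200194-116204531, was nearest to the start of Plekha7. Of the 10, 2 had more covered bases in both test tumors and 0 in both controls, near the 19.1% and 13.3% of all regions present in all 4 tumors. The region at −92.6 kb from the start (negative values are upstream) was covered by 626 and 656 bp in the controls and by 946 and 1365 bp in the test tumors. The region at −159 kb was covered by 889 and 1063 bp in the controls and by 1590 and 1996 bp in the test tumors.

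Of the 6 Sox6 starts with a RefSeq promoter entry, the acetylated one and the outermost one are shown for comparison. In the acetylated inner start (chr7:115824711-115824960) the 250 bases held 1 ACAATG and 2 ACAAAG, marked in capitals, and the CpG ratio of the entry was 0.265. The bases before the outermost start (chr7:116038797-116038994) held 1 ACAAAG, and the CpG ratio was 0.672. Both are on the minus strand. Of the other 4 entries, none with a peak in any tumor, 1 held more SOX cores than the acetylated start, with 2 ACAATG and 2 ACAAAG (chr7:115995037-115995336).
Sox6 inner start: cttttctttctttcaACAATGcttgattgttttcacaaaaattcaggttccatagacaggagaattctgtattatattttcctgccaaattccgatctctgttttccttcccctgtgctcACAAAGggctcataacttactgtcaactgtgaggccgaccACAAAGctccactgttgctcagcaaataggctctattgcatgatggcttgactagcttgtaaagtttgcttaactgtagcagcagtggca
Sox6 outermost start: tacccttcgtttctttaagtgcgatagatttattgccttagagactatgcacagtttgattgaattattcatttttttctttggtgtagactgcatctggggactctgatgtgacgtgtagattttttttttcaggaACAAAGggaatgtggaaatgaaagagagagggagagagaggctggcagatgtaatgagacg

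Sox13 (chr1:133382303-133424377, minus strand), which is known from gamma-delta T cells, carried its widest region in the gene body and not at the start. The region chr1:133411525-133419934, 4.44 kb into the gene, was covered by 7503 and 7471 bp in the controls and by 8410 and 7343 bp in the test tumors. Its promoter peak was 2069, 1637, 3313 and 1869 bp wide (control 1, control 2, test 1, test 2). Test 1 was highest in both, and the groups overlapped. The gene body was covered by 28.2%, 26.0%, 35.3% and 24.7%. Of 5 annotated starts 1 had a peak in all 4 tumors. The promoter entry had a CpG ratio of 1.00, above 94.0% of promoters, and no SOX core, as the bases before its first exon show (chr1:133424378-133424462, minus strand).
Sox13: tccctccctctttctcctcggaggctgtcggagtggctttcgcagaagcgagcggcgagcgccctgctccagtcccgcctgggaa

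Test 2 lay above the controls upstream of the Sox13 gene and below them downstream. Coverage of the 200 kb upstream was 2.18% and 2.44% in the controls, and both test 1 (3.06%) and test 2 (2.77%) lay above them. The share of all gene flanks with this order was not computed. Coverage of the 200 kb downstream was 9.81% and 10.1% in the controls, and test 1 (11.2%) and test 2 (4.20%) lay on either side of them. Over the whole window the values were 8.11%, 8.17%, 9.80% and 5.51%, so that the test tumors held both the highest and the lowest value. Of 15 regions present in all 4 tumors 4 had more covered bases in both controls and 0 in both test tumors, beside 13.3% and 19.1% of all such regions. None of the 4 was nearest to Sox13, as 3 lay nearest to Plekha6 and 1 to Kiss1. Only 15 of the 45 regions in this window were nearest to Sox13, and those covered 15.4, 14.7, 19.9 and 14.9 kb.

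Group E held the widest acetylated domains of the family. Sox9 (chr11:112782224-112787760, plus strand), which drives cartilage formation and is known from luminal progenitors, was covered by peaks over its whole body in every tumor. Its promoter peak was 9542 and 9158 bp wide in the controls and 9601 and 9668 bp in the test tumors. Window coverage was 7.96% and 6.64% in the controls (7.30% ± 0.928, SD, n = 2) and 9.18% and 8.57% in the test tumors (8.88% ± 0.427, SD, n = 2). Both test tumors were higher, by 1.58 percentage points on average with an SD of 0.834 over pairings. The groups overlapped with 100 kb or 10 kb on either side in place of 200 kb, and when peaks under 1 kb were left out. In bulk tumor tissue a change in the share of cells that carry a mark and a change in the mark per cell cannot be told apart.

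The acetylation at Sox9 lay almost entirely upstream. The 200 kb upstream were covered by 12.8% and 10.1% in the controls and by 15.1% and 13.3% in the test tumors, and the 200 kb downstream by 0.542 to 1.36%. All 29 regions had Sox9 as the nearest coding gene and 11 were present in all 4 tumors. In 6 of these 11 both test tumors had more covered bases, and in 0 both control tumors had. Over all 34804 regions present in all 4 tumors, both test tumors had more covered bases in 19.1% and both control tumors in 13.3%. With each tumor scaled to its covered bases in all such regions the count was 5. Over all 99 such regions at the 10 loci, both test tumors were higher in 18 (18.2%) and both control tumors in 12 (12.1%), close to the genome-wide shares.

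**Figure D2:**
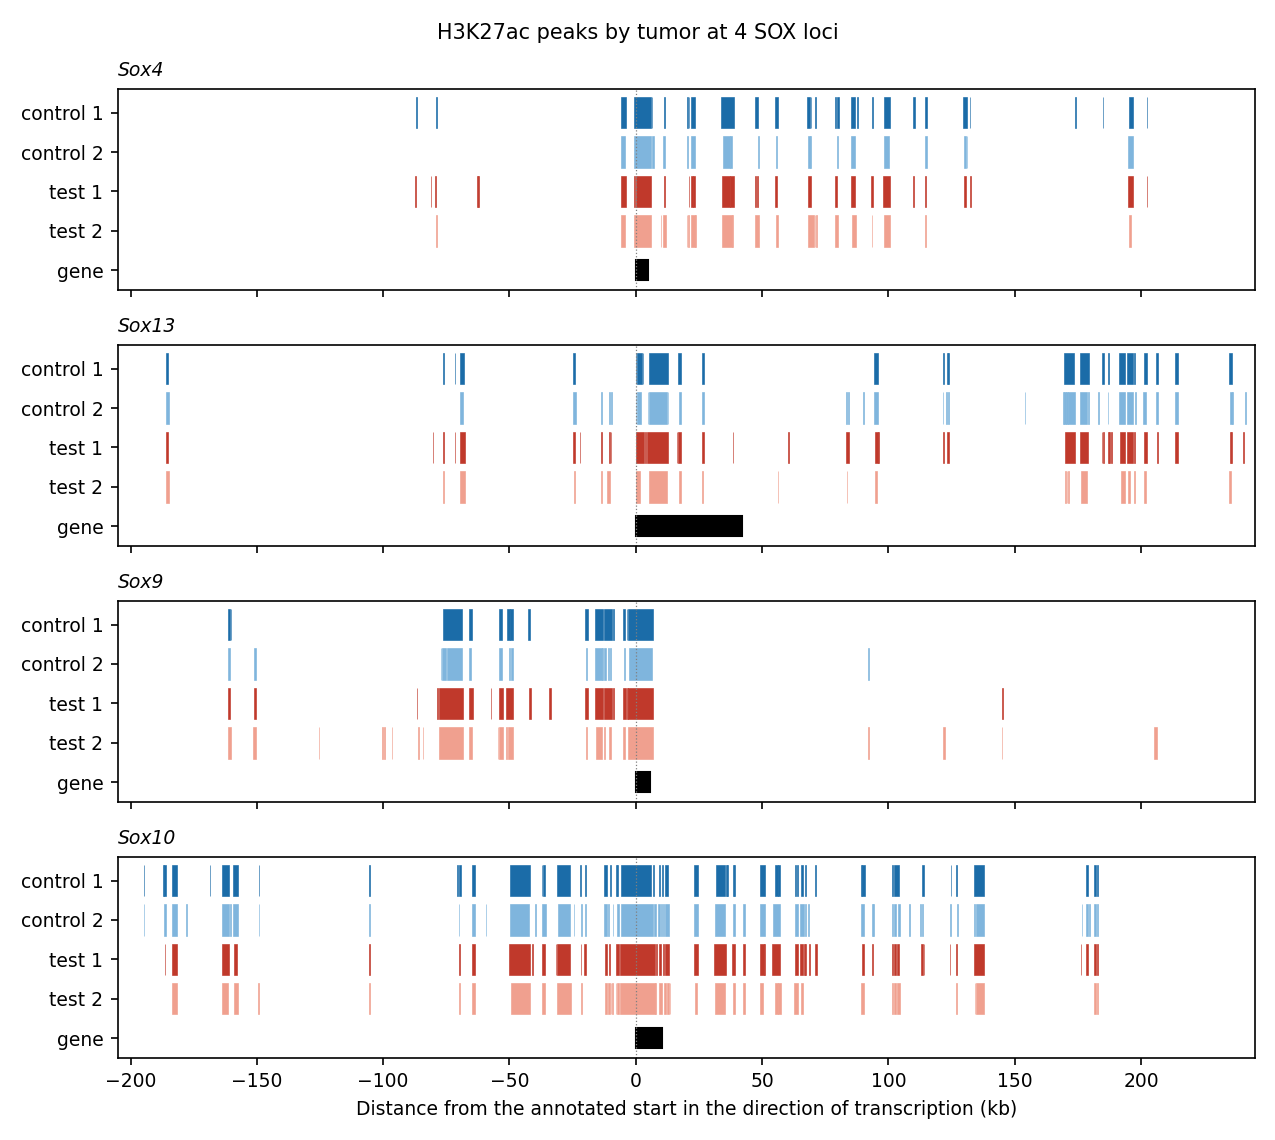
Peaks of each tumor (rows) at Sox4, Sox13, Sox9 and Sox10 by distance from the annotated start in the direction of transcription (horizontal axis, kb), with the gene as a black bar. Peaks lie mainly downstream of Sox4 and upstream of Sox9, and on both sides of Sox10.

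The clearest of these was a region of 9607 bp at chr11:112704129-112713735, at −68.5 kb from the Sox9 start with no other protein-coding gene between. It was covered by 7606 and 7753 bp in the controls (7680 ± 104, SD, n = 2) and by 9607 and 9463 bp in the test tumors (9535 ± 102, SD, n = 2). The lowest test value exceeded the highest control value by 1710 bp. At the other 5 regions the smallest gap between groups was between 2 and 130 bp. The region at −48.4 kb was covered by 2412 and 1310 bp in the controls and by 2669 and 2542 bp in the test tumors. A test-only region of 341 bp lay 145 kb downstream of Sox9 at chr11:112927044-112927384, 60056 bp from the nearest region present in all 4 tumors. It covered 302 bp in test 1 and 222 bp in test 2.

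**Figure D3:**
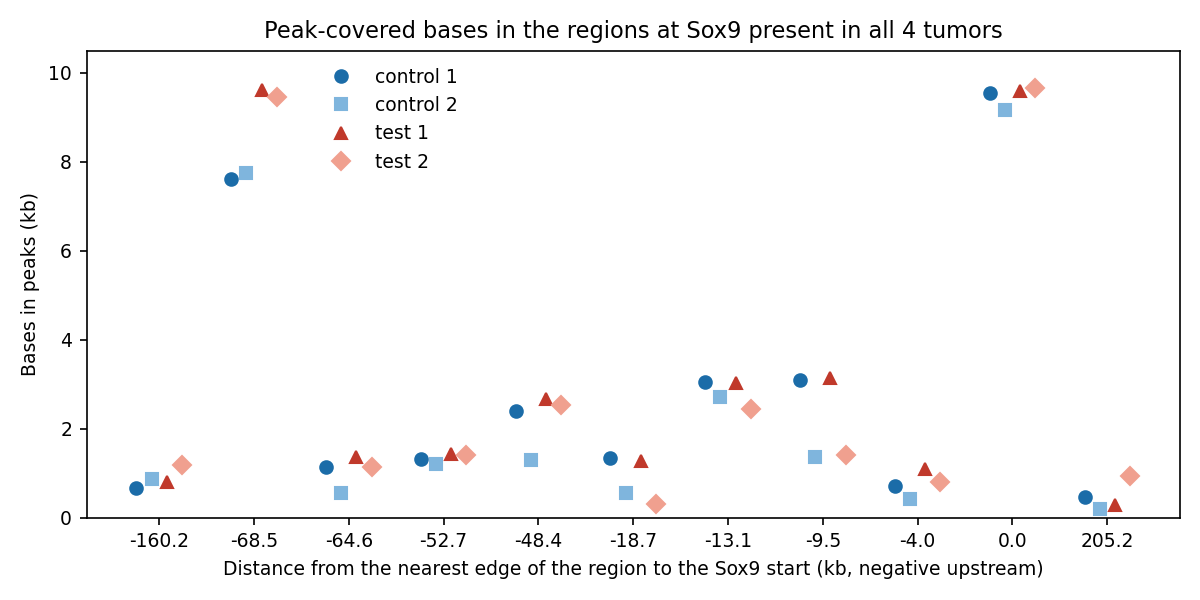
Bases in peaks (vertical axis, kb) in each of the 11 regions at Sox9 present in all 4 tumors, placed by the distance of their nearest edge from the Sox9 start (horizontal axis, kb, not to scale). At −68.5 kb both test tumors lie above 9 kb and both control tumors below 8 kb.

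The central 300 bases of both regions are shown because they hold the largest gap between groups and the test-only region of this locus (chr11:112708782-112709081 for the upstream region and chr11:112927064-112927363 for the test-only region, plus strand). Capitals mark ACAATG or ACAAAG on either strand. The upstream sequence held 0 matches and the test-only sequence held 1. At least 1 of these cores was in the central 300 bases of 37.2% of all 91238 regions and of 37.5% of the 120 regions nearest to a SOX gene.
Sox9 upstream: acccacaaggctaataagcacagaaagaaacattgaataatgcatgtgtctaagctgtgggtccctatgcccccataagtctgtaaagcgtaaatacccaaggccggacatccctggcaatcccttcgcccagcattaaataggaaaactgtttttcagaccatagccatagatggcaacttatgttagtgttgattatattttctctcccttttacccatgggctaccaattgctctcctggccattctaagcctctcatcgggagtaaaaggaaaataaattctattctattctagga
Sox9 test-only: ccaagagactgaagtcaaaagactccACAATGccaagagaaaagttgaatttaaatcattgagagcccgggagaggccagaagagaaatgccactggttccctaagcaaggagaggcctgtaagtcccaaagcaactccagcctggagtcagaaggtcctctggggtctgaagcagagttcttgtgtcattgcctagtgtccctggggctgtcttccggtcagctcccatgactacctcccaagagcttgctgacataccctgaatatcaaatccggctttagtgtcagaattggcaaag

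Sox10 (chr15:79154908-79165240, minus strand), a neural crest and glial factor that is also found in mammary progenitors, had the widest promoter domain of the family. The peak was 12048 and 12798 bp wide in the controls (12423 ± 530, SD, n = 2) and 13479 and 13594 bp in the test tumors (13537 ± 81.3, SD, n = 2). At Sox9 and Sox10 the promoter peak was thus wider in both test tumors, which held for 24.7% of all promoters with a peak in all 4 tumors, and at 0 of the 4 acetylated SOX promoters was it wider in both control tumors, against 9.6% of all such promoters. Neither order held when peaks within 1 kb were joined, where Sox10 gave 12903 and 20485 bp in the controls and 20946 and 15758 bp in the test tumors. After joining, the Sox4 promoter peak was wider in both controls, with 7289 and 7748 bp against 6654 and 6667 bp. The share of all promoters with this order after joining was not computed. Neither order held relative to the median promoter peak of each tumor, which was 1472.5, 1565, 1689 and 1531 bp. All 4 annotated Sox10 starts had a peak in all 4 tumors.

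Coverage within 10 kb of the Sox10 start was 63.9% and 75.8% in the controls and 76.9% and 80.8% in the test tumors. Control 1 was low, and control 2 was close to test 1. Both test tumors were higher by 9.02 percentage points (SD over pairings 7.25), an order found at 20.9% of genes with coverage near the start. Over the whole window the order was lost, with 15.4% and 17.4% in the controls and 17.4% and 15.6% in the test tumors. This window is gene-dense, with a promoter peak in all 4 tumors at 12 of 15 other gene entries (11 gene names, since Gcat has 2 entries), and 14 of its 67 regions were nearest to Sox10. Those covered 20.3 and 23.8 kb in the controls and 23.5 and 25.0 kb in the test tumors. Of 30 regions in all 4 tumors 6 had more covered bases in both test tumors and 6 in both control tumors, beside 19.1% and 13.3% of all such regions, so single regions are given as values only. The region at −11.2 kb from the Sox10 start was higher in the controls, with 1408 and 1567 bp against 930 and 769 bp, and the region at −25.5 kb was higher in the test tumors, with 4957 and 4848 bp against 5030 and 5514 bp. A control-only region of 269 bp at chr15:79359806-79360074 was nearest to Maff. Of 10 Schwann and glial genes, a cell type that also expresses Sox10, promoters with a peak in all 4 tumors included those of Mbp and S100b, while no peak lay near Ngfr or Foxd3. Coverage near the start, averaged over that list, came to 7.49% and 8.06% for the controls and to 8.06% and 8.63% for the test tumors, and its part in the Sox10 result was not tested.

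In group F, no promoter of Sox7, Sox17 or Sox18 had a peak in more than 1 tumor. Sox17 (chr1:4490931-4497354, minus strand), a factor of arterial endothelium and endoderm, had 2 peaks in all in its window. Control 1 had a peak of 208 bp at the promoter (chr1:4497345-4497552), control 2 had a peak of 180 bp 56681 bp from the start, and both test tumors had none. Window coverage was therefore 0.0512% and 0.0443% in the controls and listed at 0 in both test tumors, and the peaks that made this order lay at different places. Without peaks under 1 kb no coverage was left.

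Sox18 (chr2:181669836-181671640, minus strand), a factor of lymphatic endothelium, had no peak in its body or at its promoter in any tumor. Its window was covered by 5.03% and 5.85% in the controls and by 5.74% and 5.16% in the test tumors, and the groups overlapped. Of its 29 regions 1 was nearest to Sox18, and it was covered by 220 bp in control 1 and by 257 bp in test 2. The window held 15 other coding genes, 9 of which had a promoter peak in all 4 tumors, and the widest region, chr2:181518949-181521798, was at the promoter of Dnajc5. A control-only region of 255 bp, chr2:181525856-181526110, lay in the body of the same gene.

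Sox7 (chr14:63943673-63950732, plus strand), an early endothelial factor, had no peak closer than 18.7 kb to its start. The nearest was 18729 and 18987 bp away in the controls, 63080 bp in test 1 and 18715 bp in test 2. The window was covered by 0.937% and 0.928% in the controls and by 0.577% and 1.16% in the test tumors, so test 1 was lowest and test 2 highest. Only 1 of 16 regions was present in all 4 tumors, at the promoter of Pinx1, and 3 regions were missing in test 1 alone.

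Endothelial markers were followed beside group F. Of 16 endothelial genes 0 had a promoter peak in all 4 tumors, against 49.6% of all protein-coding genes. Their coverage within 10 kb of the start, summed over the list, was 62.4% and 52.2% in the controls and 21.2% and 8.15% in the test tumors. Both control tumors were higher at 6 of the 10 genes with any coverage (Pecam1, Cdh5, Eng, Esam, Emcn and Robo4), and both test tumors at 0, against 11.6% and 20.9% of all genes with coverage near the start. No peak lay near Tie1, Erg, Vwf, Cldn5, Flt4 or Lyve1 in any tumor. For 13 fibroblast genes the sums were 70.8% and 57.6% in the controls and 39.3% and 9.09% in the test tumors, with both control tumors higher at 3 of 10 covered genes and both test tumors at 0. Their part in the Sox17 values was not tested.

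Most regions of the SOX windows were either in all 4 tumors or in 1. Of 259 regions 99 were in all 4 tumors (38.2%, against 38.1% of all regions), 31 in 3 and 103 in 1 (39.8%). Those in 1 tumor were spread over control 1 (23), control 2 (26), test 1 (29) and test 2 (25). Control-only regions numbered 3 (1.16%, against 3.41% of all regions) and test-only regions 2 (0.772%, against 1.47%). Regions in all 4 tumors had a median width of 1736 bp and those in 1 tumor 194 bp, against 1688 and 215 bp over all regions. Test 2, the tumor with the fewest peaks, alone lacked 14 regions, and each other tumor alone lacked 5 to 7. By place, 5 regions were at a promoter of the 10 genes, 16 in their bodies, 22 at other promoters, 90 in other genes and 126 between genes.

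**Figure D4:**
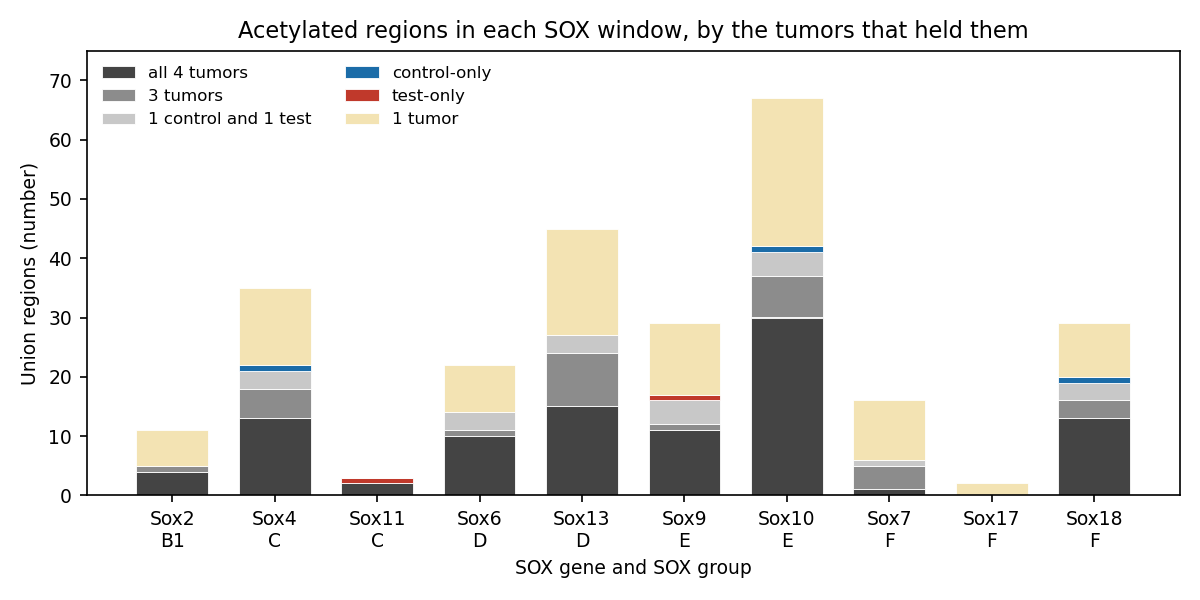
Number of regions in each SOX window (vertical axis) by gene and SOX group (horizontal axis), stacked by the tumors that held them. Control-only (3) and test-only (2) regions are a small part of the 259.

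The genes that work with SOX factors were mixed. Of 24 SOX partners and regulators 11 had a promoter peak in all 4 tumors, near the 49.6% of all protein-coding genes. Within 10 kb of the start both control tumors were higher at 3 and both test tumors at 5 of 21 with coverage, beside 11.6% and 20.9% of all genes. The median difference was −0.840 percentage points against 0.277 over all genes. Fbxw7, the ubiquitin ligase subunit that targets Sox9 for degradation, covered 19.1% and 19.8% in the controls and 22.0% and 31.9% in the test tumors. Ctnnb1, encoding β-catenin, covered 19.3% and 20.7% against 24.4% and 25.9%. Tcf7l1 covered 7.74% and 7.16% against 10.0% and 8.76%. Gli2, a Hedgehog effector, was higher in the controls, with 11.1% in both against 7.13% and 0%. Gli1, of the same pathway, covered 1.66% and 2.05% against 1.18% and 0.850%.

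Of 32 genes known as SOX targets 11 had a promoter peak in all 4 tumors, against 49.6% of all protein-coding genes. Of the cartilage genes, Acan and Matn1 had no peak near the start in any tumor, Col2a1 had coverage in control 2 alone (15.8%), and Col11a2 (15.2 to 20.5%) and Col9a1 (7.62 to 8.12%) had coverage in all 4 tumors. Both control tumors were higher at 5 and both test tumors at 3 of 25 with coverage, beside the same 11.6% and 20.9% of all genes. Lgr5 covered 3.04% and 5.89% in the controls and was listed at 0 in both test tumors. Vcam1 (6.12% and 5.12% against 2.81% and 0.425%) and Comp (4.67% and 3.17% against 0 in both) were also higher in the controls. Erbb3, which Sox10 activates in Schwann cells, covered 36.6% and 34.2% in the controls and 37.4% and 37.5% in the test tumors. Ezh2, a target of Sox4, covered 9.49% and 10.9% against 11.6% and 11.9%, and Mbp 9.11% and 11.0% against 11.9% and 11.3%.

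**Figure D5:**
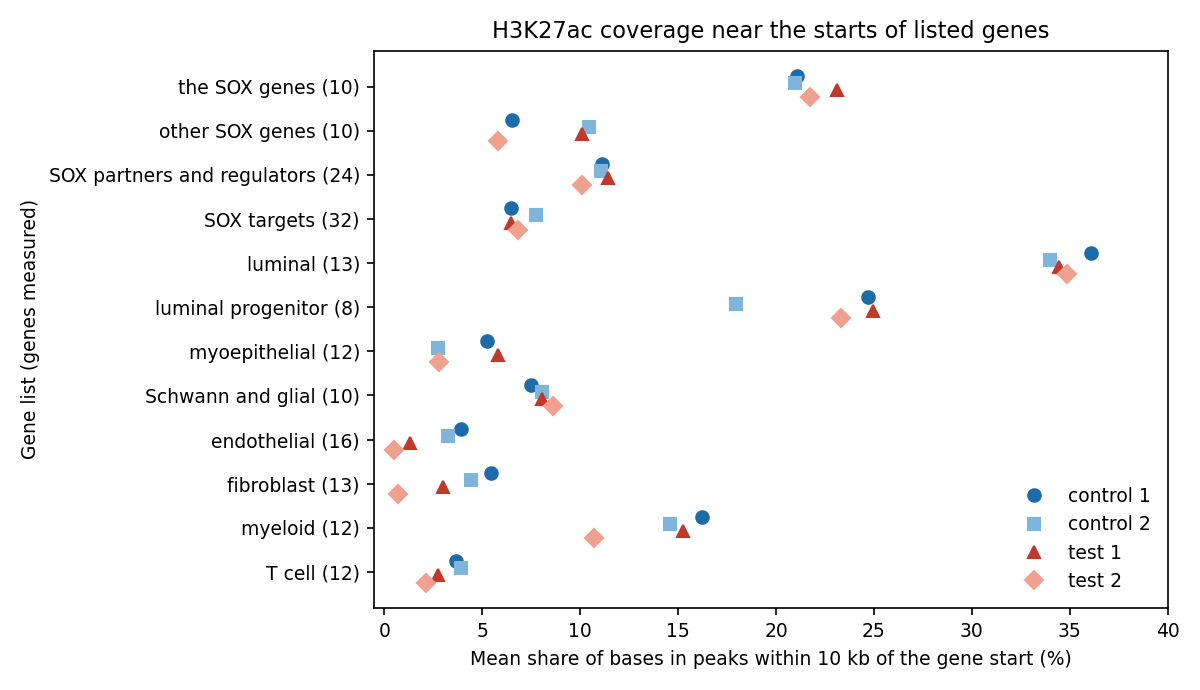
Mean percent of bases in peaks within 10 kb of the gene start (horizontal axis) for each gene list with its number of genes (vertical axis), 1 point per tumor. Endothelial genes lie at 3.90 and 3.26% in the controls and at 1.32 and 0.510% in the test tumors, while the 10 SOX genes reach their highest mean, 23.1%, in test 1.

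Of the 10 other SOX genes measured the same way, 3 had a promoter peak in all 4 tumors (Sox8, Sox12 and Sox15), against 49.6% of all protein-coding genes. No peak lay near the start of 5 (Sox1, Sox3, Sox21, Sox30 and Sry). The groups separated at 0 of the 5 with coverage, beside 11.6% of all genes with both controls higher and 20.9% with both test tumors higher. Sox8, the third group E gene, covered 31.3% and 44.9% in the controls and 36.6% and 29.2% in the test tumors.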

How the data were processed

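H3K27ac peak lists of 2 control and 2 test tumors were used, 1 list per tumor, with groups taken from the genotype per the labels. The authors aligned reads to mm10 with BWA, extended them, and ran MACS2 on every tumor separately with its input as background. The deposited values are interval positions in base pairs, without score, signal or p-value. The file names state that peaks were cleaned and merged, and what cleaning removed is not given in the sources used here. Input libraries were not analysed here. Depth is unknown from these lists, and a deeper library can give more and wider peaks. Replicate numbers only name the tumors.

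Peaks in each gene body with 200 kb either side were taken from GENCODE M21 annotation of GRCm38, the assembly of mm10. Coverage is the percent of bases in peaks, and differences are test minus control in percentage points, with the SD over the 4 test-control pairings. Overlapping or touching peaks of all tumors were joined into 91238 regions, present in a tumor with at least 1 bp of a peak. Shares over all genes or regions were computed the same way as for the SOX loci. Genes with no covered base in any of the 4 tumors did not count towards those shares (20654 windows and 14792 starts remained). The interval functions were tested on simulated data. Promoter entries in the RefSeq table (GRCm38.p6) matched 5 of the 10 genes, and those of Sox7, Sox9, Sox10, Sox17 and Sox18 are not shown. Motifs were counted on both strands, and a match is a description of the letters.

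The SOX genes, the lists of partners, targets and cell type markers, and the measures were chosen with earlier results of these data known. The promoter peak width and the covered bases of shared regions were added after values were seen. All 10 genes are named, with regions that are control-only or test-only, the widest region of each locus, and from the partner and target lists up to 3 genes per direction with the largest differences among those whose groups did not overlap. Some genes of these lists are not reported here by name. Marker genes, Sox8 and regions singled out at Sox4, Sox6, Sox9 and Sox10 were named after their values were seen. Python 3.11.15, NumPy 2.4.6 and matplotlib 3.10.9 were used.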

Additional observations from a re-analysis of the deposited data

How the results depend on the processing

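The 4 SOX promoters with a peak in all 4 tumors stayed at 4 with 2.5 kb either side, with peaks of at least 1 kb, with the 59762 widest peaks of each tumor and with each tumor left out (4 to 4), and came to 5 over any annotated start. The orders between groups were less stable. Loci with both control tumors higher came to 0 with a flank of 10 kb, with peaks of at least 1 kb, with equal peak numbers, and with only peaks nearest to the gene, and to 2 to 3 with each tumor left out (3, 2, 2 and 3 without control 1, control 2, test 1 and test 2). Loci with both test tumors higher came to 1 with a flank of 100 kb (Sox11), 1 with 10 kb (Sox10), 1 after scaling (Sox9) and 1 with peaks of at least 1 kb (Sox7), and to 3 to 5 with each tumor left out (4, 4, 5 and 3). Sox17 among the first, and Sox9 and Sox11 among the second, were in every set with a tumor left out. Their order over all 4 tumors fixes this, so it is no measure of stability. Control-only regions came to 1 with a flank of 100 kb, of 10 kb, with peaks of at least 1 kb and with only peaks nearest to the gene, and test-only regions to 1 with 100 kb, 0 with 10 kb and 0 with peaks of at least 1 kb. With each tumor left out control-only regions numbered 8 to 30 (30, 26, 16 and 8 in the same order) and test-only regions 7 to 32 (7, 9, 29 and 32), since 1 tumor then stands for its group. The ratio of covered length was 1.11 with a flank of 100 kb, 1.15 with only peaks nearest to the gene, and 1.01 to 1.09 with each tumor left out. Alternatives for promoter width and for the Sox9 regions were chosen after seeing the data. Promoter peaks wider in both test tumors came to 0 when peaks within 1 kb were joined and 0 relative to each tumor's median, and to 2 to 3 with each tumor left out. Regions at Sox9 with more covered bases in both test tumors came to 4 of 9 with peaks joined, 5 of 11 after scaling, and 7 to 8 with each tumor left out. Of 100 single-locus coverage differences under the alternatives, 91 moved by less than the spread over pairings, 9 moved by more, and 76 kept their direction. Sox9, Sox11 and Sox17, whose groups did not overlap, never took the opposite sign. Sox4, Sox6, Sox7, Sox10, Sox13 and Sox18, whose groups overlapped, took the opposite sign with separate groups under at least 1 alternative. Where no reason is given, the cause was not tested. No paired analysis was possible because the labels give the tumors no shared number and no result comes from a test. Unknown depth and the lack of peak strength limit every width given here.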

Other observations

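Other cell type lists were measured within 10 kb of gene starts, where both control tumors were higher at 11.6% and both test tumors at 20.9% of all genes with coverage. Of 12 myeloid genes, 10 of them with coverage, both control tumors were higher at 4 (Itgam, Ptprc, Tyrobp and Spi1) and both test tumors at 1 (Fcgr3), with list sums of 194% and 175% in the controls and 183% and 128% in the test tumors. Tyrobp, a signalling adaptor of myeloid cells, covered 31.3% and 24.9% against 18.0% and 16.7%. Of 12 T cell genes, also 10 with coverage, both control tumors were higher at 4 and both test tumors at 1, with sums of 44.2% and 46.7% against 33.2% and 25.9%. For 12 myoepithelial genes, with no peak near Trp63, the sums were 62.7% and 33.0% against 69.8% and 33.4%, and each group was higher at 2 of 11 genes with coverage. Of 8 luminal progenitor genes 5 had a promoter peak in all 4 tumors, beside 49.6% of all protein-coding genes. Of the 8, all with coverage, 1 was higher in both test tumors, and the sums were 198% and 144% against 200% and 186%.

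Over the SOX windows the share of peak-covered bases common to a pair of tumors (the Jaccard index) was 0.696 for the controls and 0.648 for the test tumors. Across groups it was 0.726 for control 1 with test 1, 0.703 for control 2 with test 1, 0.650 for control 1 with test 2 and 0.660 for control 2 with test 2. Over the genome the controls gave 0.661 and the test tumors 0.606, and pairs across groups gave 0.691, 0.661, 0.589 and 0.597 in the same order. In both, the 3 pairs that held test 2 were the lowest.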
